A study of Mus musculus with 2 samples.

Results

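The genes described are 7 of the 27998 in the count matrix, of which 18470 had a molecule counted in any cell: Wls, Rspo3, Sfrp1, Sfrp5, Draxin, Wif1 and Dkk3. They were taken by symbol as genes that act on secreted Wnt ligands from outside or at the exit of the cell. They were chosen by their role and by their measured levels across these same classes and libraries, so every difference between classes or libraries below is a description and none is a test. The cells came from the lateral subventricular zone, the neural stem cell niche along the lateral ventricle, of male C57BL/6 mice. Tissue of 4 mice aged 2 months was pooled for one library and tissue of 8 mice aged 22 months for the other, so single animals cannot be told apart. Cells positive for GLAST, a glutamate transporter of radial glia-like stem cells and astrocytes, were sorted, cells with O4, Ter119 or CD45 were excluded, and 8000 sort events per library went into droplet-based 3′ sequencing. Each barcode carries a library number, 1 or 2, which no label ties to an age. Library 1 is therefore set against library 2 and no age is named. With 1 library per age, the libraries also cannot be separated from the day, the sort or the pool behind them, and intervals cover counting error only.

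Wnt proteins are lipid-modified signals that bind Frizzled receptors and LRP co-receptors and, in the canonical branch, stabilise beta-catenin. Wls (Wntless) carries lipid-modified Wnts from the Golgi to the cell surface. Rspo3, an R-spondin, binds LGR receptors and keeps the ligases ZNRF3 and RNF43 from removing Frizzleds, which strengthens a Wnt response. Sfrp1, Sfrp5 and Wif1 encode secreted proteins that bind Wnts, and Draxin encodes a secreted guidance protein that can bind the LRP co-receptor. Dkk3 belongs by sequence to the Dickkopf family, although its action on LRP co-receptors differs from that of the classical members. In the adult subventricular zone, Wnt signalling is known to act on stem cell activation and on the making of neuroblasts.

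Library 1 held 1849 barcodes with a median of 4463 UMIs (unique molecular identifiers, tags that let each captured transcript be counted once), and library 2 held 2088 barcodes with a median of 5763. After filters, 1825 and 2064 cells remained, in 16 clusters made without the 7 genes and without the Wnt pathway genes listed further on. Clusters 0, 1 and 9 carried markers shared by quiescent stem cells and astrocytes, left together here (807 cells of library 1 and 637 of library 2). Clusters 4, 8 and 10 carried markers of activated stem cells and transit-amplifying progenitors (218 and 417 cells), and clusters 3, 5 and 6 those of neuroblasts (365 and 521 cells). These names mean "like" throughout. Clusters 8 and 10 each had 4 of the 14 activated markers at 1.5-fold and 0 among their 10 leading genes. Activated markers summed to 10745 and 11296 CPM (UMIs per 1000000 UMIs of the same cells) in activated cells of libraries 1 and 2. In neuroblasts they summed to 9641.1 and 11575, so this sum does not set the 2 classes apart. Neuroblast markers summed to 2884.0 and 2708.1 CPM in activated cells and to 12933 and 11010 in neuroblasts. Cluster 0 held 502 of the 807 quiescent cells of library 1, whereas in library 2 clusters 0 and 1 held 297 and 279 of 637. Median depth in the quiescent class was 3621 UMIs in library 1 and 3590 in library 2, and in the activated class 10676 and 10042. Markers of mural cells summed to 67.5 CPM in quiescent cells of library 1 and 165 in library 2, and those of fibroblasts to 20.8 and 58.0. Those of ependymal cells summed to 193 and 314 and those of oligodendrocytes to 550 and 236. In library 1, 6 of the 10 mural, 7 of the 9 fibroblast, 1 of the 10 ependymal and none of the 11 oligodendrocyte markers were at 0 in this class, against 2, 0, 0 and 0 in library 2. Oligodendrocyte markers summed to 709 and 76.8 CPM in activated cells and to 353 and 78.9 in neuroblasts. Choroid plexus markers summed to 70.6 and 25.5 CPM in quiescent cells, 11.9 and 2.45 in activated cells and 26.6 and 8.59 in neuroblasts. Ependymal markers went the other way, with 74.5 and 102 CPM in activated cells and 60.9 and 70.9 in neuroblasts. The part of such cells or of free RNA in the results was not tested. Slc1a3, the gene of GLAST, had a UMI in 82.8% of kept cells of library 1 and 83.5% of library 2, and Ptprc, the gene of CD45, in 2 cells of each. The sort still held 99 and 9 oligodendrocytes and 2 and 4 microglia. A total of 4 barcode sequences occurred in both libraries.

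The genes lie on different chromosomes except for one pair. In GRCm38 (GENCODE M21), Wls spans chr3:159839672-159938664 on the forward strand, Sfrp1 chr8:23411502-23449632 (forward), Sfrp5 chr19:42197971-42202252 (reverse) and Dkk3 chr7:112116017-112159057 (reverse). Rspo3 (chr10:29452416-29535867, reverse) and Wif1 (chr10:121033960-121100650, forward) share chromosome 10 without being neighbours. Draxin (chr4:148098437-148130698, reverse) overlaps Mad2l2 on the other strand. All 7 are protein-coding genes. RefSeq promoter windows (250 bases before to 50 after the gene start, GRCm38.p6) were at hand for Wls, Sfrp5, Draxin and Wif1. The windows of Wls and Draxin are shown because these genes lay on opposite sides of the step from quiescent to activated cells, and CG dinucleotides are in capitals. The Wls window is chr3:159839400-159839699 on the forward strand and the Draxin window chr4:148130649-148130948 on the reverse strand, both written 5′ to 3′.
Wls: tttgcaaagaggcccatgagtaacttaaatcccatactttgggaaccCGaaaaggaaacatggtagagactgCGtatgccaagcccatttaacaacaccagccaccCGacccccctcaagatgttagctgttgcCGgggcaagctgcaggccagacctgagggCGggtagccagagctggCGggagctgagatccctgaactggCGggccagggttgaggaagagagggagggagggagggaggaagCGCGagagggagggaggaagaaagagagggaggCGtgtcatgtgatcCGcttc
Draxin: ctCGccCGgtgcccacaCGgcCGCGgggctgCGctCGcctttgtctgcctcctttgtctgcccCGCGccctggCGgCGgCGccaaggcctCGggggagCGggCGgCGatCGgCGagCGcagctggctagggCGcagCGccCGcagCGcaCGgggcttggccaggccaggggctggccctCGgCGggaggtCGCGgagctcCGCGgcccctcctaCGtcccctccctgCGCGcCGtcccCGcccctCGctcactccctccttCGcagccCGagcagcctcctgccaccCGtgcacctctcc
The Draxin window held 39 CG dinucleotides and 78.0% G and C, more CG than 95.6% of 32851 promoter windows of the same length. The Wls window held 11 CG and 58.0% G and C, against medians of 7 CG and 52.7%. Sfrp5 and Wif1 lay between them with 15 and 25. The letters CTTTGNT, a core of the TCF and LEF binding motif searched on both strands, were in none of the 4 windows and in 18.6% of all windows. A window without these letters says nothing on whether such a factor acts on the gene.

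Wls, the Wnt carrier, was higher in library 1 than in library 2 in every main class. In quiescent cells it stood at 147 CPM in library 1 (473 UMIs, 95% Poisson interval 134 to 161) and at 44.6 CPM in library 2 (110 UMIs, 36.7 to 53.8), a 3.30-fold difference (log2 1.72, interval 1.42 to 2.03). A UMI of Wls was found in 39.5% of quiescent cells of library 1 and in 14.9% of library 2. After thinning each cell to 2000 UMIs the shares were 28.1% and 8.99%. In neuroblasts the levels were 59.7 CPM (48.7 to 72.6) and 27.0 CPM (21.6 to 33.4), 2.21-fold apart. That ratio mixes clusters held in unlike proportions: cluster 3 held 168 of 365 neuroblasts in library 1 and 147 of 521 in library 2. The ratio was 1.47-fold in cluster 3 (log2 0.56, -0.092 to 1.23) and 1.58-fold in cluster 5 (0.66, -0.12 to 1.41). In cluster 6 it was 3.30-fold (1.72, 0.62 to 2.92). Activated cells had the least Wls of the 3 classes, with 19.4 CPM (44 UMIs) and 8.59 CPM (35 UMIs), 2.26-fold apart. That last difference was smaller after thinning to 2000 UMIs per cell, with a log2 ratio of 0.31 instead of 1.18. Only 7 of 213 (interval 1.33 to 6.65%) and 11 of 414 (1.33 to 4.70%) activated cells then had a UMI. The thinned ratio rests on few UMIs, and the cause of the change was not tested. The 99 oligodendrocytes of library 1 (median depth 4210 UMIs), set beside these classes, had Wls at 60.4 CPM, with a UMI in 22.2% of cells and in 10.9% after thinning. Neuroblasts of library 1 were close to these values (59.7 CPM, and 10.4% after thinning), and activated cells of library 1 had a thinned share of 3.29%. The interval of the oligodendrocyte share, 5.34 to 19.1%, holds that of neuroblasts. The same oligodendrocytes had 2 UMIs of Dkk3 (4.64 CPM) and 3 of Sfrp1 (6.97 CPM), while quiescent cells of library 1 had 337 and 91.1 CPM. The parts of free RNA and of Wls made by oligodendrocytes themselves in the Wls levels were not tested. Library 2 had 9 oligodendrocytes, too few for a share.

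The order of the classes was the same in both libraries. Activated cells had 7.58-fold less Wls than quiescent cells in library 1 (log2 -2.92, -3.40 to -2.48) and 5.19-fold less in library 2 (-2.38, -2.97 to -1.82). Neuroblasts had 3.08-fold more than activated cells in library 1 and 3.15-fold more in library 2. Neuroblasts lay below quiescent cells in both, by a log2 of -1.30 in library 1 (-1.62 to -0.99) and of -0.72 in library 2 (-1.15 to -0.30). In library 2 that gap came under 1.5-fold in 5 of 10 alternative settings, with -0.24 the smallest. The order also depended on the neuroblast cluster. Cluster 3 had 118 CPM in library 1 and 79.9 CPM (55.0 to 112) in library 2. In library 2 it thus lay above the quiescent class (44.6 CPM, 36.7 to 53.8). Cluster 5, led by Nusap1 and Ube2c, had 33.8 and 21.4 CPM, and cluster 6 had 44.8 and 13.6 CPM.

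Rspo3, the Wnt agonist of the set, was found almost only in quiescent cells. It had 96 UMIs in 60 of 807 quiescent cells of library 1 (29.9 CPM, 24.2 to 36.5) and 13 UMIs in 6 of 637 of library 2 (5.27 CPM, 2.81 to 9.01). The intervals do not overlap and the ratio was 5.66-fold (log2 2.50, 1.66 to 3.46), or a log2 of 4.15 after thinning to 2000 UMIs, where 2 cells of library 2 had a UMI. In library 2, 92.3% of these UMIs came from 5 cells, and 1 cell held 5 of them, so the level there rests on a handful of cells. In library 1 the 5 cells with most UMIs held 28.1%. Activated cells had 3 UMIs in library 1 and 1 in library 2, neuroblasts 3 and 0, and the 99 oligodendrocytes of library 1 had 0, which allows up to 3 UMIs. In library 1 activated cells lay 22.6-fold below quiescent cells (log2 -4.50, -6.80 to -2.91) and neuroblasts 16.8-fold below (-4.07, -6.38 to -2.48).

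Sfrp1, a secreted Wnt-binding antagonist, had the opposite order of libraries to Wls and Rspo3. Quiescent cells had 91.1 CPM in library 1 (293 UMIs, 81.0 to 102) and 224 CPM in library 2 (553 UMIs, 206 to 244), 2.46-fold more in library 2 (log2 -1.30, -1.51 to -1.09). The gap was 4.04-fold in activated cells (21.2 against 85.4 CPM, log2 -2.01) and 3.46-fold in neuroblasts (9.46 against 32.8 CPM, log2 -1.79). A UMI was found in 24.3% of quiescent cells of library 1 and 40.3% of library 2, and after thinning in 14.5% and 28.6%. Sfrp1 was lower in activated than in quiescent cells, by 4.31-fold in library 1 and 2.63-fold in library 2, and lower still in neuroblasts, by 9.63-fold and 6.85-fold against quiescent cells. Oligodendrocytes of library 1 had 3 UMIs in 99 cells (1.09% of cells after thinning), close to the 1.79% of neuroblasts in that library, and the part of free RNA in that neuroblast value was not tested. In library 2 the activated level of 85.4 CPM was close to the quiescent level of library 1, 91.1 CPM.

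Sfrp5, its close relative, was sparse and nearly limited to quiescent cells. It stood at 14.3 CPM in library 1 (46 UMIs, 10.5 to 19.1) and 12.6 CPM in library 2 (31 UMIs, 8.54 to 17.8), and these intervals overlap (log2 ratio 0.19, -0.50 to 0.89). Activated cells of library 1 had no UMI. With a floor of 3 counts per class and library, their level was 10.8-fold lower than in quiescent cells (log2 -3.44, upper limit of the exact interval -3.08). Activated cells of library 2 had 2 UMIs (0.491 CPM, 25.6-fold lower, log2 -4.68, -7.79 to -2.70). Neuroblasts had 4 and 3 UMIs.

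Draxin was the one gene of the set that was lower in quiescent cells than in both later classes. In library 1 it went from 6.84 CPM in quiescent cells (22 UMIs, 4.29 to 10.4) to 18.1 CPM in activated cells (41 UMIs, 13.0 to 24.5) and 24.3 CPM in neuroblasts (41 UMIs, 17.4 to 32.9). In library 2 the levels were 4.06 CPM (10 UMIs, 1.94 to 7.46), 19.6 CPM (80 UMIs, 15.6 to 24.4) and 19.7 CPM (62 UMIs, 15.1 to 25.3). Activated cells thus had 2.64-fold and 4.84-fold more than quiescent cells, while activated cells and neuroblasts did not differ beyond counting error (log2 0.42, -0.24 to 1.08, and 0.0064, -0.50 to 0.50). The unnamed cluster 2, led by Ung, Rbfox3 and Dll3, had 34.3 CPM in library 1 and 29.9 CPM in library 2. The overlapping gene Mad2l2, an adaptor of DNA repair, moved the same way, from 54.4 CPM in quiescent cells to 115 in activated cells and 106 in neuroblasts in library 1, and from 60.0 to 104 and 118 in library 2. In library 2 the gap between quiescent and activated cells was smaller with another clustering seed (log2 1.16 in place of 2.28) and with the 7 genes and Wnt lists used in clustering (1.23). In neuroblasts of library 1 these settings gave 0.92 and 0.89 in place of 1.83, and the direction was the same in each. Thinned to 2000 UMIs, 6 of 726 quiescent cells of library 1 had a UMI, against 21 of 335 neuroblasts. Whether counting used strand is not given in the sources used here, and the part of Mad2l2 transcripts in the Draxin values was not tested.

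Dkk3 had its high level in quiescent cells of both libraries, 337 CPM in library 1 (1085 UMIs, 318 to 358) and 291 CPM in library 2 (718 UMIs, 270 to 313). The libraries differed by a log2 of 0.21 (0.075 to 0.35), a small gap whose counting interval lies above 0. In activated cells the sign was the other way, with 24.7 CPM in library 1 (18.7 to 32.1) and 36.6 in library 2 (30.9 to 42.9). Neuroblasts had 18.3 and 17.2 CPM. The activated difference had a log2 of -0.57 (-1.04 to -0.11), which was -1.74 after thinning and -0.10 at Leiden resolution 2. From quiescent to activated cells the level was 13.7-fold lower in library 1 (log2 -3.77, or -4.65 after thinning) and 7.96-fold lower in library 2. The thinned share of activated cells with a UMI in library 1, 2.82% (6 of 213), was close to the 2.17% of oligodendrocytes (2 of 92), and that of quiescent cells was 47.8%. With all UMIs, however, the activated level of 24.7 CPM lay above the 4.64 CPM of oligodendrocytes (0.562 to 16.8), and these intervals do not overlap. A UMI was then in 20.6% and 2.02% of cells, at median depths of 10676 and 4210 UMIs. Wif1, another secreted Wnt-binding antagonist, had no UMI in any barcode of either library. With a floor of 3 cells in place of a Clopper-Pearson limit, this allows a share of up to 0.164% in library 1 and 0.145% in library 2.

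**Figure D1:**
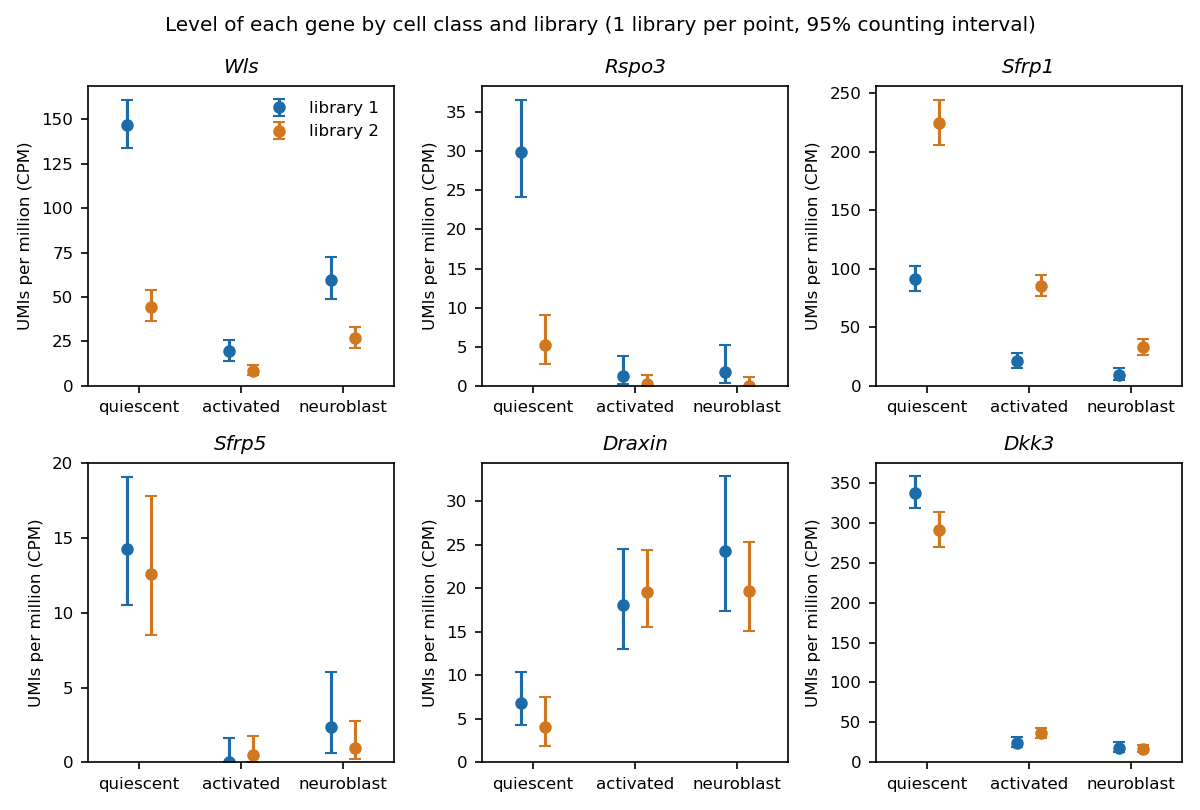
Summed UMIs per 1000000 (CPM, linear axis from 0) of 6 genes in quiescent, activated and neuroblast cells, with library 1 in blue and library 2 in orange. Points are 1 library each and bars are exact 95% Poisson intervals. Wls and Rspo3 are higher in quiescent cells of library 1 (147 and 29.9 CPM), Sfrp1 in those of library 2 (224 CPM), and Draxin alone is lowest in quiescent cells.

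Counts of the genes past 1.5-fold, where the 2 sides compared had 50 UMIs or more in sum, can be read against all genes measured the same way. Between the libraries, 3 of 5 measured genes passed in quiescent cells against 10.4% of all measured genes, 2 of 4 in activated cells against 8.37%, and 2 of 4 in neuroblasts against 11.4%. Wls and Sfrp1 passed in all 3 classes, in opposite directions, and Rspo3 in quiescent cells. Between classes, 5 of 5 measured genes passed from quiescent to activated cells in library 1 against 61.6% of all measured genes, and 4 of 4 in library 2 against 60.3%. From quiescent cells to neuroblasts, 6 of 6 passed in library 1 against 63.0% of all genes, and 4 of 4 in library 2, also against 63.0%. In each of these 4 class comparisons Draxin was the 1 gene that was higher in the later class. Nothing is read from these counts beyond the levels, since the same contrasts brought the genes together.

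The library difference of Wls recurred inside the clusters, and that of Sfrp1 did so with 1 exception. Over the 10 clusters with at least 50 cells in both libraries, Wls was higher in library 1 in 10 of 10, with a counting interval above 0 in 7, and log2 ratios from 0.56 in cluster 3 to 4.10 in cluster 7, where library 2 had 1 UMI. After thinning to 2000 UMIs this held in 9 of 10 clusters. Sfrp1 was higher in library 2 in 9 of 10, with an interval below 0 in 8. Cluster 0 was the exception: Sfrp1 stood at 73.9 CPM in library 1 (124 UMIs) and 38.0 CPM in library 2 (39 UMIs), a log2 ratio of 0.96 (0.43 to 1.52). In cluster 1 the values were 106 and 364 CPM (log2 -1.78, -2.09 to -1.47), and in cluster 9 they were 117 and 325 CPM (-1.47, -1.97 to -0.99). The sign of the Sfrp1 difference therefore depended on the cluster within the quiescent class. As a background, of 9005 genes with at least 200 UMIs and a UMI in each of these clusters, 1.60% were higher in library 1 in every cluster, and 4.29% were higher in library 2 in at least 9.

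**Figure D2:**
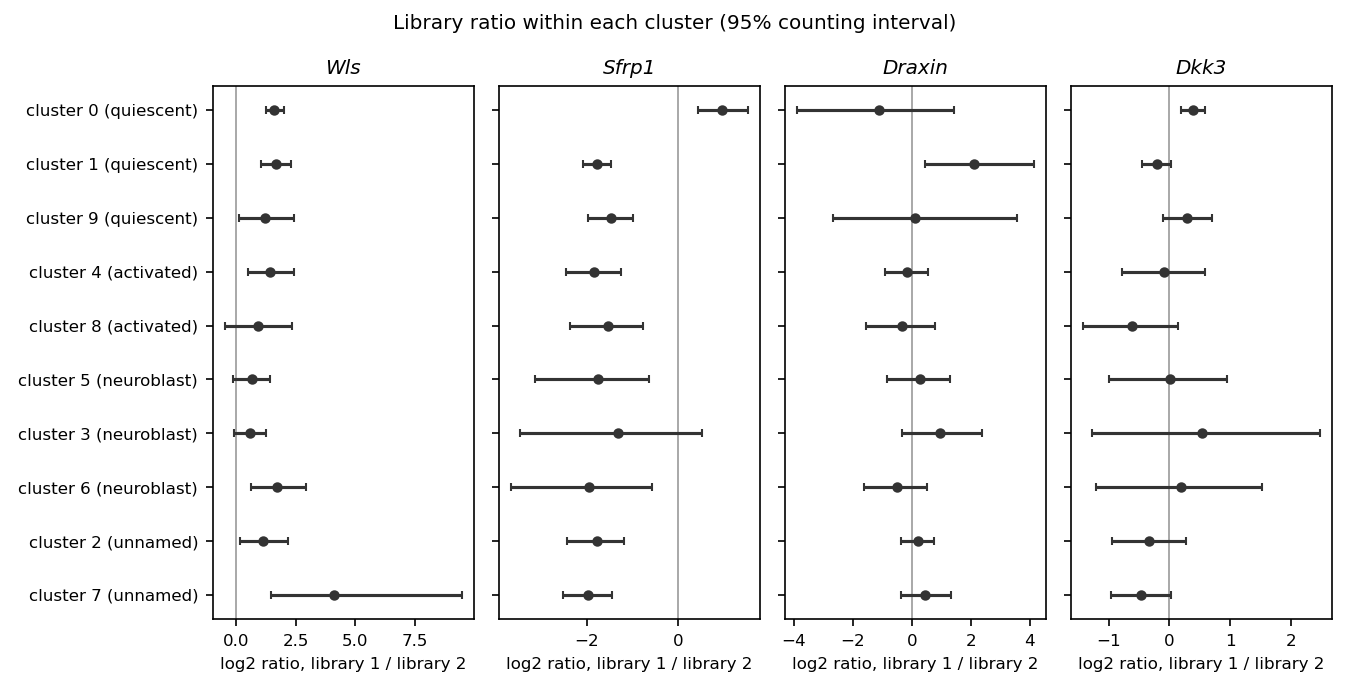
Log2 ratio of CPM, library 1 over library 2, of Wls, Sfrp1, Draxin and Dkk3 in the 10 clusters with at least 50 cells in both libraries. Points are ratios of summed UMIs, bars are exact 95% counting intervals, and each panel has its own horizontal scale. All Wls points lie right of 0, while for Sfrp1 only cluster 0 does (0.96).

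The other genes differed less, or over fewer clusters. Dkk3 was higher in library 1 in 5 clusters and in library 2 in 5, with log2 ratios between -0.61 and 0.53. Draxin was higher in library 1 in 6 and in library 2 in 4, and only cluster 1 had an interval that left out 0 (15 against 4 UMIs). Rspo3 had enough UMIs for a ratio in 3 clusters, all in the quiescent class and all higher in library 1. It stood at 84.0 against 3.62 CPM in cluster 9 (43 and 1 UMIs) and at 42.9 against 10.3 CPM in cluster 1 (44 and 12 UMIs). Cluster 0 had 9 UMIs in 502 cells of library 1 and 0 in 297 cells of library 2. Sfrp5 in library 1 was higher in cluster 0 (24.4 CPM, 17.5 to 33.1) than in cluster 1 (1.95 CPM, 0.236 to 7.05, 2 UMIs). In library 2 its intervals in these clusters overlapped (15.6 CPM, 8.91 to 25.3, and 12 CPM, 6.58 to 20.2). Cluster 0 had Cxcl14, Slc7a10, Htra1 and Aqp4 among its leading genes, cluster 1 Gfap, S100a6, Prss56 and Thbs4, and cluster 9 the immediate early and stress genes Socs3, Junb and Cyr61.

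A finer split of the quiescent class into 6 subgroups (Leiden resolution 2), each named here by 2 leading genes outside the Wnt lists, showed where each gene lay. Of these, 3 came from cluster 0, 2 from cluster 1 and 1 mostly from cluster 9. Wls was highest in the Htra1 and Kcnk1 subgroup in both libraries, with 252 CPM (220 to 288) in library 1 and 91.5 CPM (66.5 to 123) in library 2. It was higher in library 1 in all 6 subgroups, from 2.75-fold there to 10.1-fold in the Gm10561 and Prss56 subgroup (68.1 against 6.74 CPM, 2 UMIs in library 2). Rspo3 lay in the other 3 subgroups that make up clusters 1 and 9. In library 1 it had 84.1 CPM in the Socs3 and Junb subgroup, 43.5 CPM in the Gfap and S100a6 subgroup and 40.6 CPM in the Gm10561 and Prss56 subgroup, while the 3 subgroups of cluster 0 had 4.59 to 5.73 CPM. In library 2 the corresponding values were 3.10, 8.64 and 16.8 CPM.

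Sfrp1 divided the subgroups most sharply in library 2. There it ran from 18.7 CPM in the Htra1 and Kcnk1 subgroup and 35.9 CPM in the Grin2c and Cxcl14 subgroup to 353 CPM in the Socs3 and Junb subgroup and 420 CPM (376 to 467) in the Gfap and S100a6 subgroup. In library 1 the same 4 subgroups had 58.4, 55.1, 124 and 239 CPM, a narrower range. The library ratio was 3.12-fold towards library 1 in the Htra1 and Kcnk1 subgroup (log2 1.64, 0.61 to 2.85). It pointed to library 2 in the Gfap and S100a6 subgroup (1.76-fold), the Gm10561 and Prss56 subgroup (3.16-fold) and the Socs3 and Junb subgroup (2.84-fold). In the remaining 2 subgroups its interval held 0. The Gfap and S100a6 subgroup itself had 68 cells in library 1 and 214 in library 2. In library 1 most Sfrp5 lay in the Htra1 and Kcnk1 subgroup (34.4 CPM, 30 of 46 UMIs), which in library 2 had 16.6 CPM (8 of 31 UMIs). It was also found in the Grin2c and Cxcl14 subgroup of library 1 (27.5 CPM, 6 UMIs), and in library 2 in the Agt and Crym subgroup (23.4 CPM, 5 UMIs) and the Gfap and S100a6 subgroup (17.3 CPM, 14 UMIs). The last of these had 0 Sfrp5 UMIs in 68 cells of library 1, 1.33-fold lower with a floor of 3 counts, but the exact interval of that ratio still held 0 on the log2 scale.

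**Figure D3:**
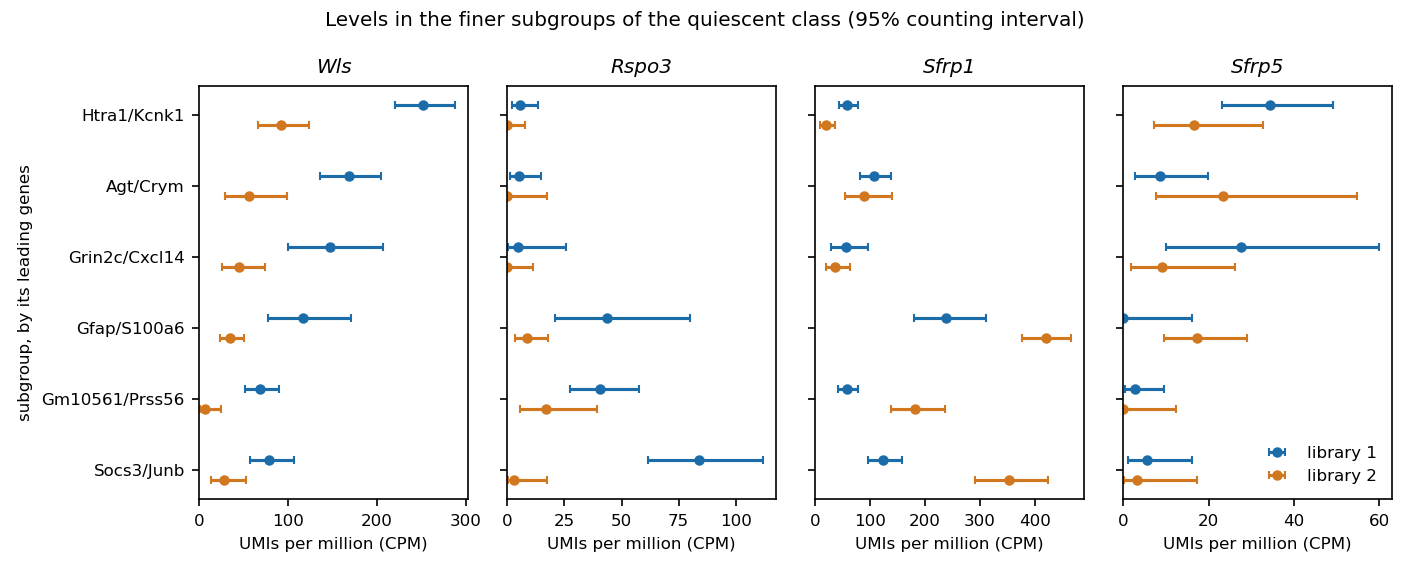
CPM (linear axis from 0) of Wls, Rspo3, Sfrp1 and Sfrp5 in 6 finer subgroups of the quiescent class, each labelled with 2 leading genes, with library 1 in blue and library 2 in orange and exact 95% Poisson intervals as bars. The upper 3 subgroups are high in Wls, up to 252 CPM, and the lower 3 hold most Rspo3 and, in library 2, most Sfrp1, up to 420 CPM.

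Single quiescent cells were next read for how many of the genes they held, which depends on depth. After thinning to 2000 UMIs, 32.0% of quiescent cells of library 1 had no UMI of any of the 7 genes, 41.9% had 1 gene, 22.0% had 2 and 4.13% had 3 or more. In library 2 these shares were 40.3%, 40.1%, 17.8% and 1.83%. In activated cells 85.4% and 73.7% had none, and in neuroblasts 77.3% and 79.0%. Sfrp1 was found more often in cells with Dkk3 than in cells without it, in 19.3% (interval 15.3 to 23.9%) against 10.0% (7.19 to 13.5%) in library 1 and in 34.7% (28.7 to 41.1%) against 24.5% (20.1 to 29.3%) in library 2. Without thinning Sfrp1 was in 27.3% of cells with Dkk3 and 18.3% of cells without in library 1, and Dkk3 was in 75.0% of cells with Sfrp1. Within clusters 0, 1 and 9 the thinned shares kept this order in both libraries. Their intervals overlapped except in cluster 1 of library 1 (29.7%, 19.7 to 41.5%, against 11.7%, 6.39 to 19.2%). Sfrp1 and Wls showed no such pairing in library 1, with Sfrp1 in 14.2% of cells with Wls and 14.6% of cells without. In library 2 Sfrp1 was in 16.7% of cells with Wls (9 of 54, interval 7.92 to 29.3%) and in 29.8% of those without (26.0 to 33.8%). That gap pools clusters with unlike levels of both genes. In cluster 0 of library 2 the shares were 0% (0 of 37) and 8.02% thinned, and 8.33% and 11.0% with all UMIs. In cluster 1 they were 70.4% and 66.3% with all UMIs, and in each case the intervals overlapped. After thinning none of the 105 Sfrp1 cells of library 1 had Sfrp5, against 3.54% of the other cells, but without thinning 7 of 196 had it (3.57%, 1.45 to 7.22%), against 5.24% (3.61 to 7.31%) of the others. Cells of 1 library share that library, so these shares carry no test.

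Cells with Rspo3 in library 1 often held Prss56, a protease gene, and Notum, which encodes a secreted enzyme that inactivates Wnts by removing their lipid. Prss56 was found in 58.1% of the 31 thinned quiescent cells with Rspo3 and in 16.3% of the 695 without, and Notum in 54.8% and 13.2%. Ecel1, a membrane peptidase gene, was found in 32.3% and 6.47%. Gfap, an astrocyte filament gene, was found in 6.45% and 7.05%. Aqp4, a water channel gene, was found in 25.8% (11.9 to 44.6%) and 37.4% (33.8 to 41.1%). These genes were chosen after their values had been seen. The shares pool clusters with unlike levels of Rspo3, and shares within clusters were not taken. In library 2 only 2 thinned cells had Rspo3, too few for a comparison.

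The genes whose levels ran most like each of the 6 with UMIs were found over 22 units, each a cluster in 1 library with at least 50 cells, by Pearson's r of log2(CPM + 10) over 9167 genes. Units of 1 library share its depth and preparation, so r is a description with no test. For Wls these were Plpp7 (r = 0.90), 4930402H24Rik and Rbms1 (both 0.86). For Rspo3 they were Utp11l (0.87), Acox3 (0.85) and Ecel1 (0.80), and for Sfrp1 the Wnt and FGF antagonist gene Shisa2 (0.94), Ifitm2 and Tspan18 (both 0.91). For Sfrp5 they were Pla2g7 (0.92), the amino acid transporter gene Slc7a10 and the NMDA receptor gene Grin2c (both 0.91). For Draxin they were Traf4 (0.94), Panx1 (0.93) and Mfng (0.92), a modifier of Notch, and for Dkk3 the mitochondrial thiolase gene Acaa2, Nim1k and Sdc4 (all 0.98). Of the 22 units, Rspo3 stood well above the added 10 CPM only in clusters 1 and 9 of library 1 (42.9 and 84.0 CPM). Its r values thus rest mostly on these units of 1 library. Among the genes of the set themselves, r was highest for Sfrp1 with Dkk3 (0.74) and Sfrp5 with Dkk3 (0.72) and lowest for Draxin with Sfrp5 (-0.63).

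The wider pathway was taken as 7 lists with 120 genes in the matrix, which also hold the 7 genes above and were drawn up with earlier results of these data known. Between the libraries 10 of 63 measured list genes in quiescent cells were at least 1.5-fold apart (15.9%, against 10.4% of all measured genes), as were 11 of 57 in activated cells (19.3%, against 8.37%) and 14 of 47 in neuroblasts (29.8%, against 11.4%). The 7 genes, chosen by their levels in these libraries, make up 3 of the 10, 2 of the 11 and 2 of the 14. These list shares are therefore raised by that choice, and nothing is read from them. The list of Wnt ligands also holds Ndp, which encodes norrin, a Frizzled ligand that is not a Wnt. Of this list 14 of 20 genes, Ndp among them, had a UMI in kept cells. Wnt2, Wnt3a, Wnt8a, Wnt8b, Wnt9b and Wnt10b were at 0. No measured ligand passed 1.5-fold between the libraries in quiescent cells (0 of 3, median log2 0.26, against 0.032 over all measured genes). Of the 11 measured genes of Wnt processing and secretion, 1 passed, Wls, with a median of 0.014. Of 3 measured R-spondin and receptor genes, 1 passed, Rspo3. Of 6 measured antagonists, 1 passed, Sfrp1, with a median of 0.20. Wls, Rspo3 and Sfrp1 were thus the only measured genes of these 4 lists past 1.5-fold in quiescent cells. They had been chosen by these same levels, so this is a description and says nothing on the lists.

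Among receptors in quiescent cells, 3 of 13 measured genes passed. The Frizzled gene Fzd9 was higher in library 1 (92 and 33 UMIs, 28.6 against 13.4 CPM, 2.14-fold). The glypican gene Gpc4 (22 and 35 UMIs, 6.84 against 14.2 CPM) and the co-receptor gene Ptk7 (24 and 36 UMIs, 7.46 against 14.6 CPM) were higher in library 2. Of 21 measured genes of the pathway inside the cell, the co-repressor gene Tle2 was higher in library 1 (49 and 21 UMIs, 1.79-fold). Tle3 (27 and 34 UMIs, 1.64-fold) and the Dishevelled gene Dvl2 (60 and 73 UMIs, 1.59-fold) were higher in library 2. No intervals were taken for list genes outside the 7, here or below, so their smaller folds on few UMIs may lie within counting error. Of 8 measured feedback targets, the cyclin gene Ccnd1 passed (42.0 against 17.8 CPM, 2.35-fold higher in library 1). Their median log2 was 0.28.

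In activated cells 3 of 6 measured antagonists were higher in library 2, and none in library 1, while 3.84% of all measured genes were higher in library 2 and 4.53% in library 1. They were Notum (4.85 against 22.6 CPM, 4.65-fold), Sfrp1 and Shisa2 (8.38 against 27.7 CPM, 3.31-fold), and the list median was -1.15 against 0.033 over all genes. The feedback targets Lef1, a transcription factor of the pathway (2.72-fold), and Tnfrsf19 (1.60-fold) were also higher in library 2, with Notum 3 of 9, as were the receptor genes Fzd5 (2.99-fold) and Gpc4 (2.07-fold) and the transcription factor Tcf7l2 (1.59-fold). The co-receptor gene Lrp6 (1.88-fold) and Dvl3 (1.96-fold) were higher in library 1. In neuroblasts Shisa2 was 7.20-fold higher in library 2 (2.96 against 21.3 CPM), and Tpbg, which encodes a membrane inhibitor of Wnt signalling, was 3.07-fold higher in library 1 (19.5 against 6.36 CPM). The ligand gene Wnt5a was 1.82-fold higher in library 1 (30.8 against 16.9 CPM), the single measured ligand in these cells. With at least 20 UMIs in place of 50, the count in quiescent cells was 16 and in neuroblasts 24, and with at least 200 UMIs it was 2 and 0. These counts change by construction with the number of genes measured, and nothing is read from them.

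From quiescent to activated cells, 44 of 61 measured list genes were at least 1.5-fold apart in library 1 (72.1%, against 61.6% of all measured genes) and 43 of 64 in library 2 (67.2%, against 60.3%). The 7 chosen genes make up 5 of the 44 and 4 of the 43. Over all measured genes 31.7% were lower and 29.8% higher in library 1, and 29.9% lower and 30.3% higher in library 2, and the lists are set beside these shares with no test. All 3 measured genes of the ligand list were lower in both libraries: Wnt7a by 5.23-fold and 13.6-fold, Wnt7b by 2.53-fold and 2.09-fold, and Ndp, not a Wnt gene, by 2.26-fold and 2.67-fold. Of 11 measured genes of processing and secretion, 7 were lower in library 1 (63.6%) and 6 in library 2 (54.5%), led by Wls and by Porcn, the enzyme that attaches the lipid to Wnts (7.76-fold and 5.06-fold). Lgr4, an R-spondin receptor gene, was 12.7-fold and 16.4-fold lower, and Znrf3 2.88-fold and 1.83-fold. Notum was 26.7-fold lower in library 1 and 4.92-fold lower in library 2. Of the receptors, 5 of 9 were lower in library 1 (55.6%) and 5 of 12 in library 2 (41.7%), with Fzd2 3.76-fold and 3.90-fold lower.

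Of the genes inside the cell, 11 of 23 were higher and 3 lower in library 1 (median log2 0.48 against 0.0064 over all genes), and 11 of 22 higher and 3 lower in library 2 (0.47 against 0.058). Csnk1e, a kinase gene, was 4.38-fold and 3.34-fold higher, and Axin1, the scaffold of the beta-catenin destruction complex, 3.40-fold and 2.62-fold. Tcf7l2 was 3.53-fold and 2.04-fold lower. The feedback target Ccnd1 was 2.31-fold and 4.17-fold higher, while Tnfrsf19 was 3.71-fold and 2.49-fold lower. In neuroblasts Wnt5a was 14.1-fold and 8.31-fold above quiescent cells, where it had 2.18 and 2.03 CPM, and Wnt7b was 27.1-fold and 11.1-fold below. Depth differed between these classes, and with each cell thinned to 2000 UMIs 27 list genes in place of 44 passed from quiescent to activated cells in library 1, and 27 in place of 43 in library 2.

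**Figure D4:**
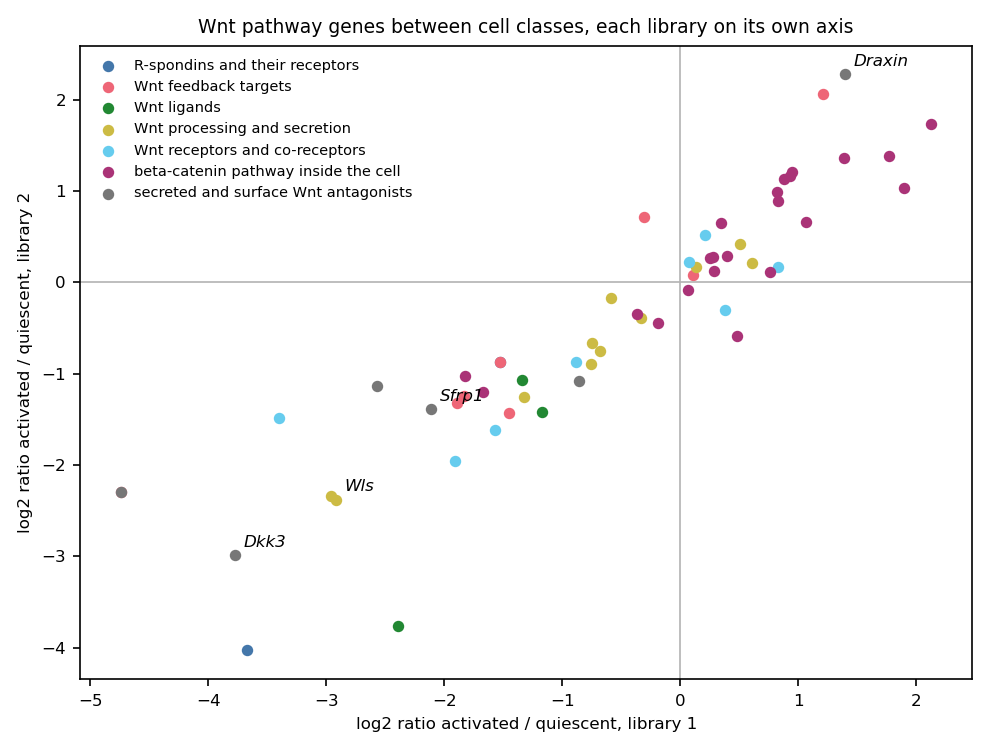
Log2 ratio of CPM, activated over quiescent cells, of the 58 Wnt list genes measured in both libraries, with library 1 on the horizontal and library 2 on the vertical axis and 1 colour per list; a gene in 2 lists is a single point in the colour of the later list. Of these genes 29 lie below 0 in both libraries and 25 above 0 in both, Dkk3, Wls and Sfrp1 among the former and Draxin (1.40 and 2.28) among the latter.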

How the data were processed

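Single-cell RNA was measured in 1 library of GLAST-sorted cells per age. The authors deposited raw UMI counts per gene and barcode, without normalization, for both libraries in 1 matrix (total counts 10440891 and 13330251). Per the submitters' processing notes, Cell Ranger 2.0.0 and the builds GRCm38.p3 and mm10 were used; how cells were called and libraries merged is not given in the sources used here. A barcode was kept if it had 500 genes or more and mitochondrial UMIs did not exceed 10% (22 removed). Scrublet, run per library with an expected rate of 1.5%, marked 26 doublets, which were removed. Clustering in scanpy 1.11.5 (Python 3.11.15) used the 2000 most variable genes outside the 7 genes and the Wnt lists, 30 components, 15 neighbours and Leiden resolution 1 with seed 1. Clusters were named from fixed markers of 14 classes: the best class by mean log2 fold of its markers, given at least 3 markers at 1.5-fold and found in at least 10% of cells, and no other class with more markers among the 10 leading genes. That rule was written with the clusters already seen. Levels are summed UMIs per 1000000 (CPM) with exact 95% Poisson intervals, ratios have exact conditional binomial intervals and shares Clopper-Pearson intervals. A side at 0 was set to 3 counts, and no fold is given when both sides are at or under 3. No test was made, since there are no replicates. The ratio script was tested on simulated data.

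The 7 genes and the lists were chosen with earlier results of these data known. All 7 genes are named in every comparison. Of the other list genes, up to 3 per list, comparison and direction with the largest fold among those at least 1.5-fold apart could be named. Likeness names the 3 genes with the highest r among genes with at least 200 UMIs. Alternatives changed doublets, the cell filter, the resolution, the clustering genes, depth, the weight of cells, scaling (TMM of edgeR 4.0.16) and the UMI minimum. Leaving out cells with shared barcodes, seed 2 and adding cluster 2 to the activated class were chosen after seeing the data.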

Additional observations from a re-analysis of the deposited data

Results flagged for a closer look

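Library ratios of a gene with opposite signs in 2 classes, or in 2 clusters of the quiescent class, and with counting intervals that do not overlap were singled out. None of these differences was tested, since each rests on 1 library per side. Sfrp1 had a log2 ratio, library 1 over library 2, of 0.96 in cluster 0 against -1.78 in cluster 1 and -1.47 in cluster 9. At resolution 2 the 3 subgroups of cluster 0 had 1.64, 0.26 (-0.50 to 1.09) and 0.62 (-0.66 to 1.90), and those of cluster 1 had -0.81 and -1.66. Sfrp5 had 0.65 in cluster 0 against -2.62 in cluster 1, the latter from 2 and 14 UMIs. Dkk3 had 0.21 in quiescent against -0.57 in activated cells, and 0.39 in cluster 0 against -0.21 in cluster 1. At resolution 2 Dkk3 had 0.85, -0.37 (-0.74 to 0.0044) and 0.30 in the subgroups of cluster 0, and 0.30 and 0.24 in those of cluster 1, so signs differed within cluster 0.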

How the results depend on the processing

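Of 38 ratios of the 7 genes at least 1.5-fold apart, 7 of them within cluster 0 or 1, 34 stayed so with the same sign under every alternative to which they were put, apart from reading a quiescent ratio cluster by cluster. The others were Draxin between libraries in quiescent cells (0.53 with cells weighted equally), Wls between libraries in activated cells (0.31 thinned), Wls from quiescent cells to neuroblasts in library 2 (-0.24 at resolution 2), and Sfrp5 in cluster 0 (0.38 with a minimum of 1000 genes and a limit of 5% mitochondrial UMIs). Of 445 values of the genes' ratios 416 lay inside the main counting interval. Read cluster by cluster, 2 ratios past 1.5-fold took the other sign, those of Sfrp1 and Draxin in cluster 0. The log2 ratio between libraries of Wls was 1.19 in cluster 9, that of Rspo3 4.54 in cluster 9, that of Sfrp1 0.96 in cluster 0 and -1.78 in cluster 1, and that of Draxin -1.13 in cluster 0 (3 and 4 UMIs). Thinning to 2000 UMIs moved Rspo3 in quiescent cells to 4.15, and the resolution 2 subgroups compared with clusters 0 and 1 (Htra1 and Kcnk1, Gfap and S100a6), each a part of its cluster, had Sfrp1 at 1.64 and -0.81.

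Counts past 1.5-fold depend by construction on how many genes reach the UMI minimum. With at least 200 UMIs, the 7 genes gave 1 call in activated cells and 0 in neuroblasts between libraries, and 3 (library 1) and 2 (library 2) from quiescent cells to activated cells and to neuroblasts alike; list genes gave 2, 3 and 0 calls between libraries in the 3 classes, 22 and 21 towards activated cells and 22 and 22 towards neuroblasts. Calls over all measured genes between libraries were then 4.77%, 2.98% and 4.55%. With at least 20 UMIs they were 14.1% in activated cells and 17.5% in neuroblasts, and 16 list genes passed in quiescent cells and 24 in neuroblasts. Thinned, the 7 genes gave 1 call in activated cells and 1 in neuroblasts between libraries, 3 towards activated cells in library 1, and 3 and 2 towards neuroblasts; list genes gave 5 and 3 calls in activated cells and neuroblasts between libraries, 27 and 27 towards activated cells and 30 towards neuroblasts in library 1. At resolution 2 list genes in neuroblasts gave 5. The cause of that last change was not tested. TMM moved no median by more than 0.10. No paired analysis was possible because each age has 1 library. Depth limits Rspo3, Sfrp5 and Draxin most, with 1 to 96 UMIs where they were found in a class.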
